A study of Arabidopsis thaliana with 6 samples.

Results

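The nuclear genes for the photosystem cores and for photosynthetic electron transport are described here in rosette leaves of *Arabidopsis thaliana* that lack the receptor kinase FERONIA (FER). The group was set by a list of names: nuclear genes for subunits of photosystem I and photosystem II outside the antenna, for the carriers between and after the photosystems, and for the chloroplast ATP synthase. The list was chosen with earlier results of these data known. All 33 genes of the list were among the 20754 genes measured. They are 12 genes of photosystem I, 5 of the oxygen-evolving side of photosystem II, 6 others of photosystem II, 7 of electron carriers and 3 of the ATP synthase. In the RefSeq annotation of TAIR10.1 they are spread over all 5 chromosomes, with 15 on chromosome 1, 3 on chromosome 2, 3 on chromosome 3, 9 on chromosome 4 and 3 on chromosome 5.

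Transcripts were measured by QuantSeq, which yields a read position close to the 3′ terminus of a polyadenylated RNA, and read numbers can therefore be compared between genes without a correction for length. The mutant plants were *fer-4* (hereafter *fer*), a T-DNA insertion mutant of FER in the Columbia-0 accession, and they were compared with wild-type Columbia-0 (WT), with 3 libraries per genotype. The column names call both genotypes untreated. By the labels, both genotypes spent 10 days on plates in constant light and 21 days on soil in short days of 8 h light and 16 h dark at 22 °C, and were collected as rosette leaves at 4 weeks, whereas the study's text gives long days and a slightly greater age. The labels call the libraries biological replicates without saying whether plants were pooled, and the p-values measure only the spread between these libraries.

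In the thylakoid membrane, photosystem II uses light to take electrons from water, and extrinsic proteins on its lumenal side shield and stabilize the manganese cluster that does this. The electrons pass through the cytochrome b6f complex to plastocyanin, and photosystem I then lifts them to ferredoxin, from which ferredoxin-NADP reductase makes NADPH, while the proton gradient drives the ATP synthase. The reaction-centre proteins themselves are encoded in the plastid genome, and the nucleus supplies the peripheral subunits and the soluble carriers, so that each complex is built from products of both genomes. None of the 16 plastid-encoded genes of a comparison list was in the table, and the plastid-encoded side is not analysed here.

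The promoters of 4 genes are shown as examples. They leave out the gene with the largest decrease (PSBO2) and the only gene with a higher mean in *fer* (PSBY). PSAF, PSBTN and PETE2 were abundant and fell strongly in *fer*, and PSAE2 had levels that overlapped between the genotypes. The sequences come from the RefSeq TAIR10.1 genome, run 5′ to 3′ up to the last base before the annotated gene start, and stop where a neighbouring gene begins. Capitals mark matches to CACGTG (the G-box), GATAAG (the I-box, in capitals as CTTATC where it lies on the other strand) or CCAATC, elements known from promoters of light-responsive plant genes, which were searched on both strands.

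PSAF (chr1:11216142-11216391, minus strand): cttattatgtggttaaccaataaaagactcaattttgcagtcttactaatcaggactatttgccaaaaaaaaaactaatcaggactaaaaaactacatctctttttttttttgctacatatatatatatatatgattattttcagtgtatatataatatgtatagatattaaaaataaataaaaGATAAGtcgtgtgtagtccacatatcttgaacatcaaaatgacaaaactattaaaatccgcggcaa
PSBTN (chr3:7377227-7377390, minus strand): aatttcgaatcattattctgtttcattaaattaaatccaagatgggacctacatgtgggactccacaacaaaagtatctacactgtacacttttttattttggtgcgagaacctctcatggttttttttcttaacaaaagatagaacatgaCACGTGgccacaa
PETE2 (chr1:7043393-7043627, minus strand): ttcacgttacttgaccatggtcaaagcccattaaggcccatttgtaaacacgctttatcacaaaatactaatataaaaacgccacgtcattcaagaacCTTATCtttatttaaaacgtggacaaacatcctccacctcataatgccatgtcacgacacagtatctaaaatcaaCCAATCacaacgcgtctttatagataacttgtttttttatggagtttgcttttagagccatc
PSAE2 (chr2:8736598-8736733, plus strand): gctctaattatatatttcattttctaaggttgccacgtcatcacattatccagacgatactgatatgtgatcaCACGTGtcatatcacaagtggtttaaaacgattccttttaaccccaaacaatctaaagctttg

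In windows of 250 bases before the gene start, CACGTG occurred in 6 of the 33 promoters (18.2%) and in 7.3% of the 20753 promoters read. Unlike the sequences shown, these windows were not cut at neighbouring genes and can hold bases of such genes. GATAAG occurred in 9 of 33 (27.3%) and in 12.5% of all promoters, and CCAATC in 4 of 33 (12.1%) and in 10.6% of all. The G-box was in the promoter of PSBTN at position -13 and in that of PSAE2 at position -63, counted from the gene start to the first base of the match. All 4 promoters shown hold a match, whereas those of PSAG, PSAO and PSBR, also abundant and decreased, hold none in their windows of 250 bases. A match is only a run of letters, and whether any factor binds there was not measured.

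FER itself averaged 7.62 ± 2.33 normalized reads in *fer* and 272 ± 12.3 in WT (SD, n = 3 each), so that the labels matched the level of the mutated gene. The leaf genes RBCS1A, RCA and BCA1, which encode a Rubisco subunit, Rubisco activase and a carbonic anhydrase, were among the abundant transcripts in all 6 libraries. Root markers were close to 0: the 4 of 7 markers in the table summed to between 4.54 and 13.4 normalized reads in *fer* and to between 3.03 and 20.3 in WT, and CASP5, COBL9 and LRX1 were not among the genes listed. Across all genes, 3021 of 20754 (14.6%) passed an adjusted p of 0.05 in limma, of which 2083 (10%) were higher and 938 (4.52%) lower in *fer*. Median of ratios scaling gave 1510 higher and 1460 lower, and quantile normalization 1353 higher and 1450 lower.

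Of the 33 genes, 20 decreased in *fer*, none increased and 13 did not pass the test, beside 4.52% of all genes that decreased. Their median log2 fold change was -0.27, against 0.10 over all genes. In 27 of the 33 all *fer* libraries lay below all WT libraries, a pattern that 10.5% of all genes showed. The genes are abundant, and abundant genes decreased more often: among the 1018 genes at least as high as the lowest member (a mean of 642 normalized reads), 28.6% decreased and the median log2 fold change was -0.07. These 1018 include the 33 genes, and 985 of them are not members. They are bounded below only and not matched to the group in level, since 19 of the 100 highest genes are members. In bulk leaf tissue, fewer cells that express these genes and less RNA per cell cannot be told apart.

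The calls rest on how limma estimates the variance. When a single prior variance was used for genes of every level, where the median standard error of the 33 genes was 0.12 in place of 0.07, none of them passed (1.07% of all genes decreased), and the lowest adjusted p was 0.053. In that fit 15 of the 33 (45.5%) had an unadjusted p under 0.05, beside 4775 of all genes (23%). Median of ratios scaling called 30 of the 33 as decreased, beside 7.03% of all genes, and quantile normalization called 19, beside 6.99% of all genes. No alternative called any member as increased.

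**Figure D1:**
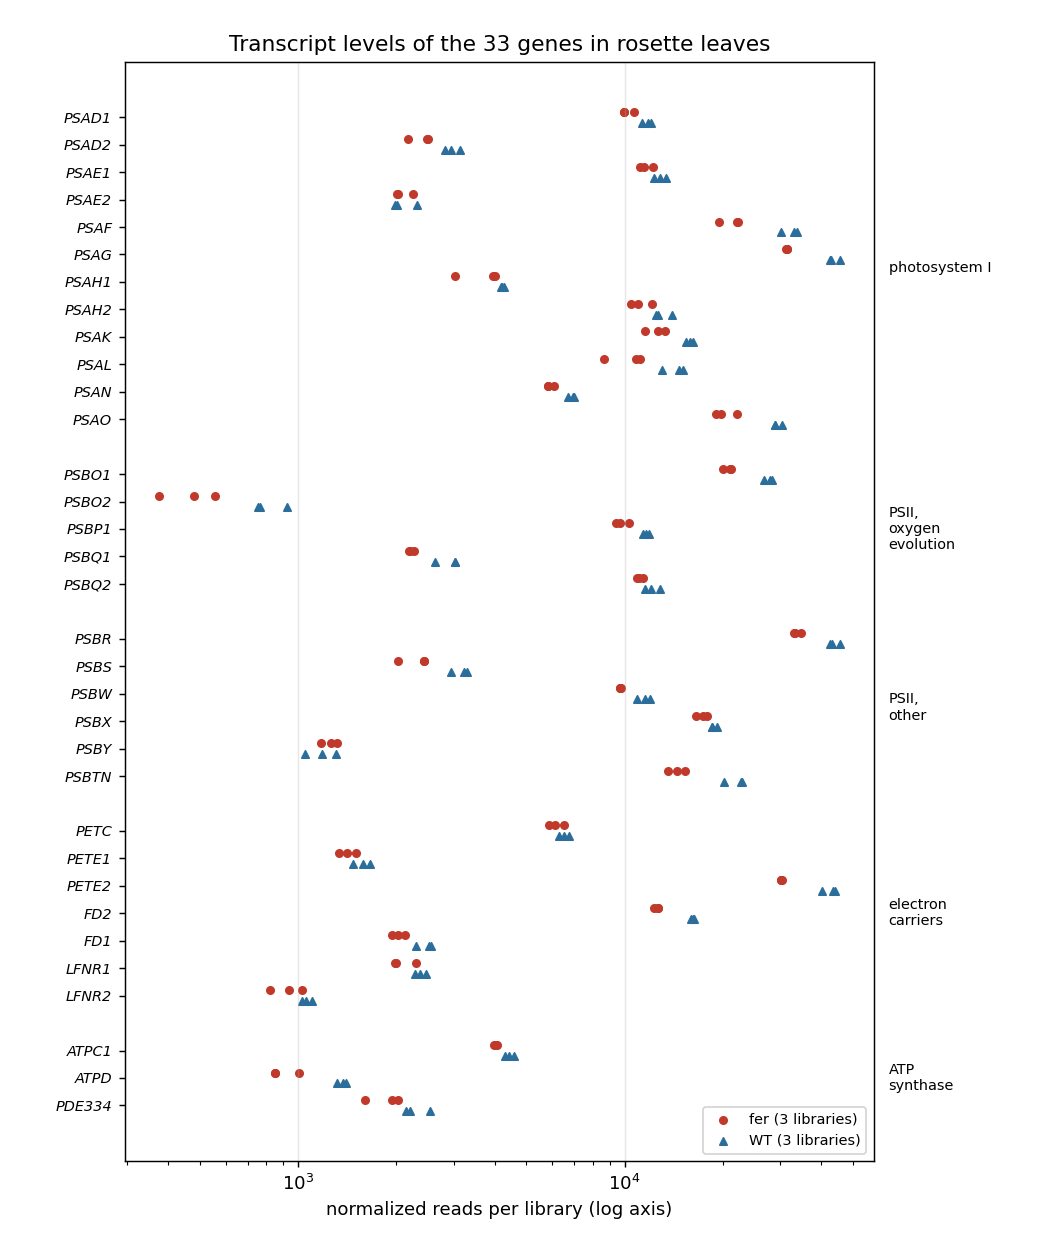
Normalized reads per library (horizontal log axis) for the 33 genes, grouped by complex, with *fer* libraries as circles and WT libraries as triangles, 3 points each. The circles lie left of the triangles without overlap in 27 genes, and the levels run from 374 normalized reads in the lowest *fer* library of PSBO2 to 45560 in the highest WT library of PSAG.

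Photosystem I held the largest part of the reads of the group. Its 12 genes made up 3.16% ± 0.04 of all normalized reads in *fer* and 4.18% ± 0.01 in WT (SD, n = 3 each). Of the 12, 7 decreased (median log2 fold change -0.27), beside 4.52% of all genes and 28.6% of the 1018 abundant genes. PSAF (AT1G31330), which encodes the lumenal subunit at the docking site of plastocyanin, had 22153, 22205 and 19523 normalized reads in *fer*, against 32962, 33846 and 30193 in WT. The genotypes were far apart relative to the libraries of each, and the mean was 34.1% lower in *fer* (log2 fold change -0.60 ± 0.08 SE, limma adjusted p = 1.3e-05). Every ± after a log2 fold change below is likewise its standard error, and every ± after a mean is the SD of 3 libraries.

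PSAG (AT1G55670) encodes a membrane subunit on the side where the light-harvesting antenna binds. Its 3 *fer* libraries held 31400, 31171 and 31506 normalized reads, against 42748, 42622 and 45560 in WT. It was 28.2% lower in *fer* and nearly the same in the mutant libraries, with an SD of 171 (log2 fold change -0.48 ± 0.07, adjusted p = 6.7e-05). Under quantile normalization, which forces the most abundant genes of all libraries onto the same values, the change was -0.20 and the adjusted p was 0.058.

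PSAK (AT1G30380), the other small membrane subunit on the antenna side, had 13311, 11546 and 12691 normalized reads in *fer*, against 16169, 15841 and 15449 in WT (log2 fold change -0.34 ± 0.07, adjusted p = 0.0028). The opposite side of photosystem I, where the mobile antenna of photosystem II docks during state transitions, is formed by the products of PSAH, PSAL (AT4G12800) and PSAO (AT1G08380). PSAO fell to 19782, 22102 and 19108 normalized reads in *fer*, against 28907, 30448 and 28816 in WT (log2 fold change -0.53 ± 0.07, adjusted p = 3.8e-05). PSAL fell to 11184, 8628 and 10824 in *fer*, against 15147, 14630 and 12998 in WT (log2 fold change -0.49 ± 0.09, adjusted p = 0.0009).

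PSAL and PSAO thus lost 28.4% and 30.8% of their transcript level, and *fer* column 2 was the lowest of all libraries for PSAL and the highest *fer* library for PSAO. The pair of genes for PsaH did not pass. PSAH1 (AT3G16140) averaged 3664 ± 552 normalized reads in *fer* and 4228 ± 40.6 in WT (log2 fold change -0.22 ± 0.09, adjusted p = 0.12). PSAH2 (AT1G52230) averaged 11198 ± 829 in *fer* and 13044 ± 796 in WT (log2 fold change -0.22 ± 0.08, adjusted p = 0.056), and it passed when *fer* column 2 was left out (adjusted p = 0.017). Without that library the log2 fold change of PSAH1 was -0.09 (adjusted p = 0.46). In both, all *fer* libraries lay below all WT libraries.

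The stromal subunits PsaD and PsaE, where ferredoxin docks, are encoded by a pair of genes each, and of these 4 genes 1 passed. PSAD2 (AT1G03130), the lower of its pair, had 2507, 2177 and 2477 normalized reads in *fer*, against 2930, 2809 and 3122 in WT (log2 fold change -0.31 ± 0.08, adjusted p = 0.01). PSAD1 (AT4G02770) averaged 10199 ± 415 in *fer* and 11693 ± 389 in WT, and its change of -0.20 ± 0.07 missed the threshold with an adjusted p of 0.062. PSAE1 (AT4G28750) averaged 11606 ± 550 in *fer* and 12845 ± 571 in WT (log2 fold change -0.15 ± 0.07, adjusted p = 0.19).

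PSAE2 (AT2G20260) was the gene of photosystem I with the smallest difference. It had 2006, 2249 and 2027 normalized reads in *fer*, against 1975, 2004 and 2316 in WT, and the libraries of the genotypes overlapped fully. It changed by a log2 fold change of -0.0011 ± 0.08, and its sign changed in 3 of 6 fits with a library left out. PSAN (AT5G64040), for a lumenal subunit, averaged 5909 ± 132 in *fer* and 6891 ± 143 in WT (log2 fold change -0.22 ± 0.07, adjusted p = 0.031). That call was lost without any 1 of the WT libraries and without *fer* column 1 or 3, with adjusted p between 0.024 and 0.12 over the 6 fits.

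**Figure D2:**
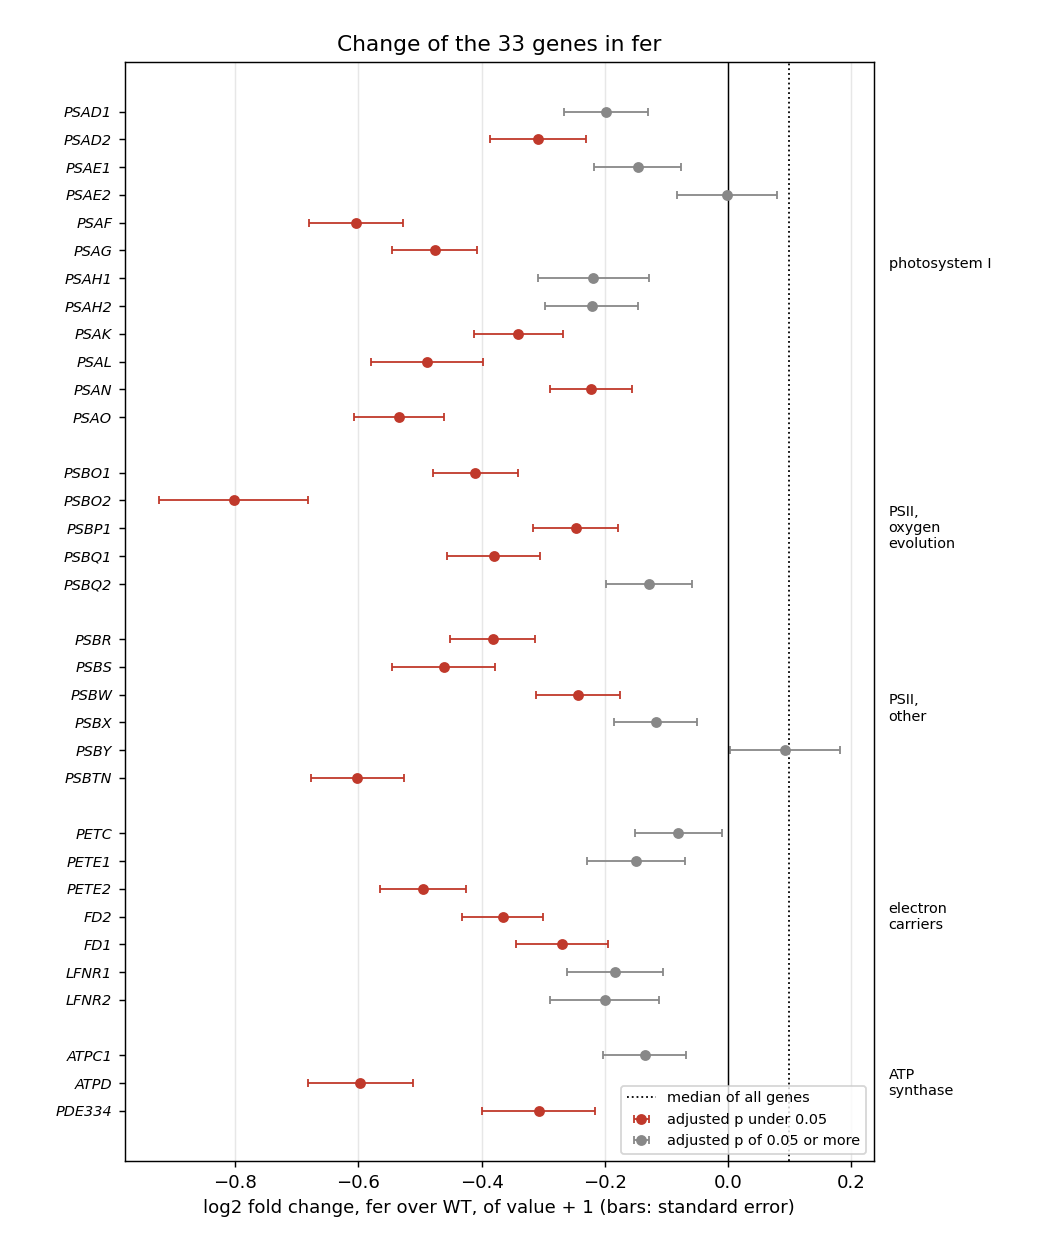
Log2 fold change of *fer* over WT on the scale of log2(value + 1), with standard errors as bars, for the 33 genes by complex. Red points passed an adjusted p of 0.05 in limma, grey points did not, and the dotted line is the median of all genes at 0.10. The 20 red points lie between -0.80 (PSBO2) and -0.22 (PSAN), and PSBY is the single gene right of 0.

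On the oxygen-evolving side of photosystem II, 4 of the 5 genes decreased, beside 4.52% of all genes and 28.6% of the 1018 abundant genes. The median log2 fold change over the 5 was -0.38. PSBO encodes the protein that stabilizes the manganese cluster. The minor gene PSBO2 (AT3G50820) had the largest change of all 33. It had 556, 374 and 481 normalized reads in *fer*, against 923, 754 and 765 in WT, a mean 42.2% lower (log2 fold change -0.80 ± 0.12, adjusted p = 0.00011). It also varied most between libraries, with a coefficient of variation of 19.4% in *fer* and 11.6% in WT, against medians of 5.87% and 4.45% over the 33 genes.

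The major gene PSBO1 (AT5G66570) had 21174, 21100 and 20041 normalized reads in *fer*, against 26770, 28191 and 27823 in WT (log2 fold change -0.41 ± 0.07, adjusted p = 0.0003). It was 24.7% lower in *fer*, and its call was lost under quantile normalization (-0.17, adjusted p = 0.12). PSBP1 (AT1G06680) and the PSBQ genes encode the proteins that keep calcium and chloride at the cluster. PSBQ1 (AT4G21280) had 2192, 2261 and 2197 in *fer*, against 3014, 3031 and 2628 in WT (log2 fold change -0.38 ± 0.08, adjusted p = 0.0017).

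Its more abundant partner PSBQ2 (AT4G05180) averaged 11112 ± 269 normalized reads in *fer* and 12151 ± 645 in WT, and this difference did not pass (log2 fold change -0.13 ± 0.07, adjusted p = 0.25). PSBP1 averaged 9806 ± 476 in *fer* and 11630 ± 253 in WT (log2 fold change -0.25 ± 0.07, adjusted p = 0.02). Without WT column 1 or 2 or without *fer* column 1 or 3, the adjusted p of PSBP1 was between 0.065 and 0.12.

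Among the other genes of photosystem II, 4 of 6 decreased, beside 4.52% of all genes and 28.6% of the 1018 abundant genes. The median log2 fold change over the 6 was -0.31. PSBTN (AT3G21055) encodes a small lumenal subunit. It fell to 15319, 14526 and 13619 normalized reads in *fer*, against 22947, 22811 and 20225 in WT (log2 fold change -0.60 ± 0.08, adjusted p = 1.2e-05), a loss of 34.1% that matched that of PSAF in size. PSBR (AT1G79040), for a subunit near the extrinsic proteins, was the most abundant of the 33 genes, with 34626, 33342 and 32923 in *fer*, against 42601, 45542 and 43346 in WT.

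The decrease of PSBR was 23.3% (log2 fold change -0.38 ± 0.07, adjusted p = 0.00072), and it shrank to -0.11 with an adjusted p of 0.33 under quantile normalization. PSBS (AT1G44575) differs from the rest in its role, since its protein switches the antenna to heat dissipation in excess light. It had 2425, 2021 and 2436 normalized reads in *fer*, against 3224, 3280 and 2948 in WT (log2 fold change -0.46 ± 0.08, adjusted p = 0.00063). Its libraries were separate by genotype, with *fer* column 2 the lowest.

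PSBW (AT2G30570), PSBX (AT2G06520) and PSBY (AT1G67740) encode small membrane subunits and gave different results. PSBW averaged 9684 ± 47.7 normalized reads in *fer* and 11476 ± 543 in WT (log2 fold change -0.24 ± 0.07, adjusted p = 0.02), and its adjusted p was between 0.079 and 0.097 without WT column 1 or 2 or without *fer* column 1 or 3. PSBX averaged 17285 ± 632 in *fer* and 18742 ± 385 in WT (log2 fold change -0.12 ± 0.07, adjusted p = 0.29). PSBY averaged 1252 ± 74.9 in *fer* and 1177 ± 128 in WT, the only gene of the 33 with a higher mean in *fer*, and the difference did not pass (log2 fold change 0.09 ± 0.09, adjusted p = 0.55).

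Of the 7 carrier genes, 3 decreased, beside 4.52% of all genes and 28.6% of the 1018 abundant genes. The median log2 fold change over the 7 was -0.20. PETE2 (AT1G20340), the main gene for plastocyanin, had 30061, 30332 and 30237 normalized reads in *fer*, against 40304, 43431 and 44131 in WT. It was 29.1% lower in *fer* (log2 fold change -0.50 ± 0.07, adjusted p = 4.9e-05). PETE1 (AT1G76100), the minor gene, averaged 1418 ± 84.8 in *fer* and 1573 ± 95.1 in WT with overlapping libraries (log2 fold change -0.15 ± 0.08, adjusted p = 0.24).

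Ferredoxin takes the electrons from photosystem I, and both leaf ferredoxin genes decreased. FD2 (AT1G60950), the major one, had 12634, 12294 and 12655 normalized reads in *fer*, against 15940, 16271 and 16217 in WT (log2 fold change -0.37 ± 0.07, adjusted p = 0.00069). FD1 (AT1G10960) averaged 2035 ± 93 in *fer* and 2453 ± 137 in WT (log2 fold change -0.27 ± 0.07, adjusted p = 0.02). The call for FD1 was lost without WT column 2 or 3 or without *fer* column 1, with adjusted p between 0.065 and 0.099.

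The genes on either side of these carriers did not pass. PETC (AT4G03280), for the Rieske iron-sulfur protein of the cytochrome b6f complex, averaged 6176 ± 340 normalized reads in *fer* and 6528 ± 244 in WT (log2 fold change -0.08 ± 0.07, adjusted p = 0.51). LFNR1 (AT5G66190) and LFNR2 (AT1G20020) encode the leaf forms of ferredoxin-NADP reductase. LFNR1 averaged 2093 ± 172 in *fer* and 2372 ± 92.4 in WT (log2 fold change -0.18 ± 0.08, adjusted p = 0.13), with an adjusted p of 0.033 without *fer* column 2. LFNR2 averaged 927 ± 103 in *fer* and 1061 ± 40 in WT (log2 fold change -0.20 ± 0.09, adjusted p = 0.15), and its log2 fold change was -0.11 without *fer* column 2 (adjusted p = 0.42).

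The libraries of the genotypes overlapped in PETC, PETE1, LFNR1 and LFNR2, 4 of the 6 genes of the whole group that overlapped. The other overlaps were PSAE2 and PSBY. A p that misses the threshold does not show that these genes were equal in the genotypes.

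In the ATP synthase, ATPD (AT4G09650) encodes the delta subunit, which links the catalytic head to the stator. It had 1009, 851 and 850 normalized reads in *fer*, against 1375, 1314 and 1399 in WT, a mean 33.7% lower (log2 fold change -0.60 ± 0.09, adjusted p = 5.6e-05). PDE334 (AT4G32260), for a stator subunit in the membrane, had 2025, 1608 and 1942 in *fer*, against 2538, 2200 and 2144 in WT (log2 fold change -0.31 ± 0.09, adjusted p = 0.029). This call was lost without WT column 1 or 2 or without *fer* column 2 or 3, with adjusted p between 0.073 and 0.15. ATPC1 (AT4G04640), for the gamma subunit of the rotor, averaged 4040 ± 42.3 in *fer* and 4438 ± 135 in WT (log2 fold change -0.13 ± 0.07, adjusted p = 0.21).

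Of the 20 calls, 15 held in all 6 fits with a library left out, the exceptions being PSAN, PSBP1, PSBW, FD1 and PDE334. Over those fits the number of the 33 genes called as decreased ran from 15, without WT column 2, to 21, without *fer* column 2. The share of all genes called in these fits is not given, so the counts show only how far the calls held. No single *fer* library carried the decrease. The median log2 difference of the 33 genes from the WT mean was -0.25, -0.37 and -0.25 in *fer* columns 1, 2 and 3, and 33, 30 and 32 genes lay below the WT mean in these columns. The lowest *fer* value came from column 1 in 10 genes, from column 2 in 10 and from column 3 in 13.

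Summed over all members, the group took 7.32%, 7.28% and 7.14% of all normalized reads in the *fer* libraries, against 9.33%, 9.49% and 9.38% in the WT libraries. The libraries within a genotype thus differed by far less than the genotypes, and the sum in *fer* was 77.1% of that in WT. By complex, the sum in *fer* was 75.5% of WT for photosystem I, 80.6% for the oxygen-evolving side, 78.3% for the other genes of photosystem II, 76.1% for the carriers and 84% for the ATP synthase.

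**Figure D3:**
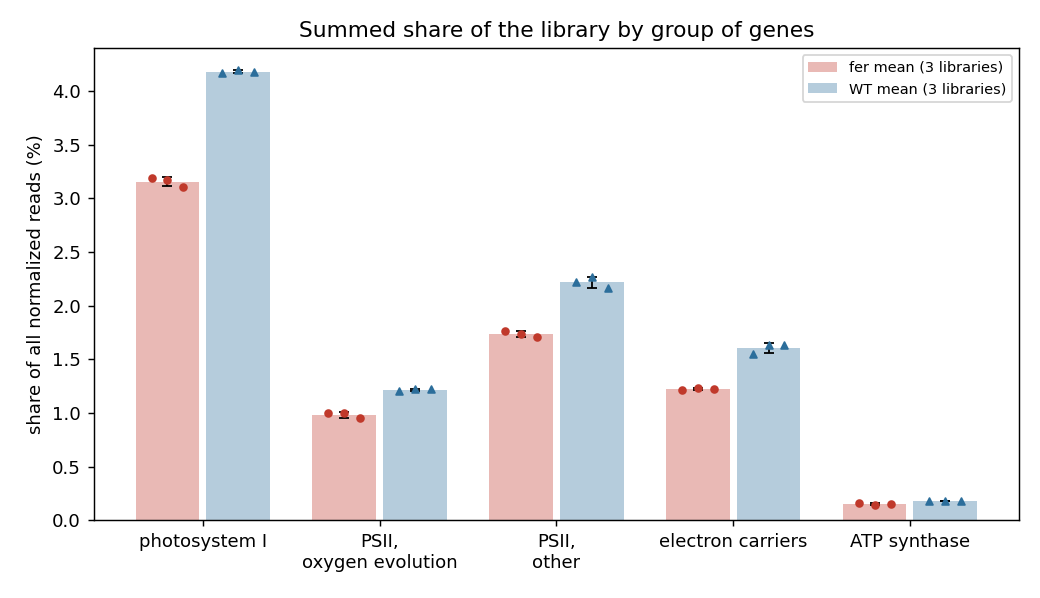
Share of all normalized reads of a library (vertical axis, in %) held by the genes of each complex, with bars at the mean of 3 libraries, error bars of 1 SD and 1 point per library, *fer* left of WT. In each of the 5 groups the 3 *fer* points lie below the 3 WT points, for photosystem I at 3.11% to 3.19% in *fer* and 4.17% to 4.19% in WT.

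Across the 33 genes, the Spearman correlation of mean level and log2 fold change was -0.33, a description over genes that share the same 6 libraries. The lowest gene, PSBO2, had the largest decrease and stands outside that order.

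**Figure D4:**
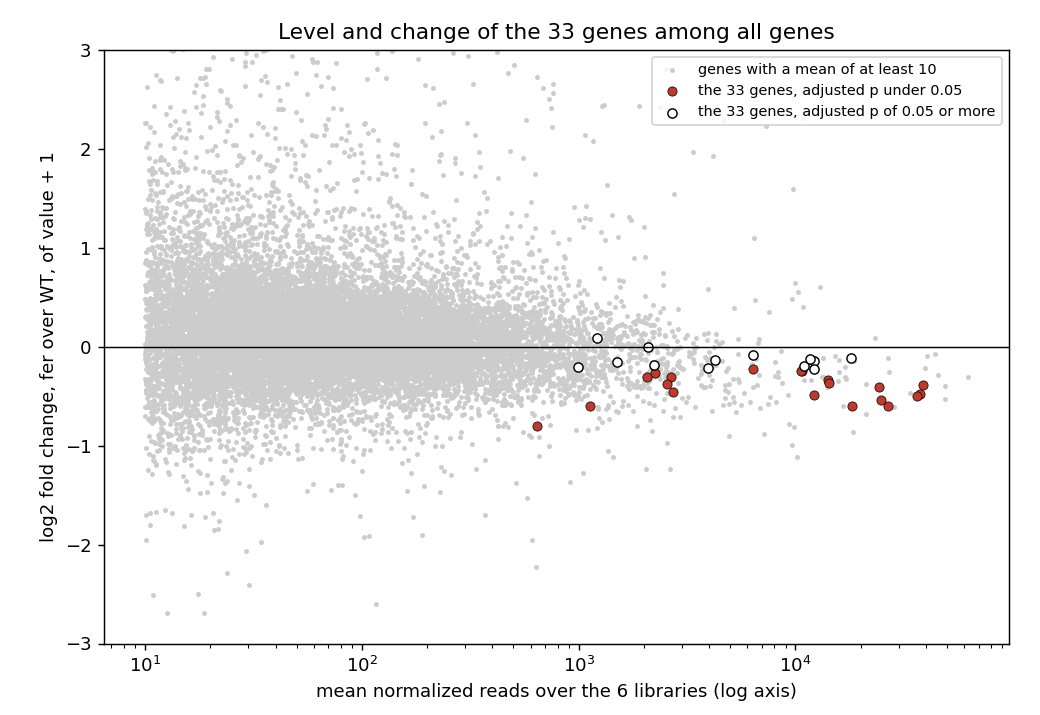
Mean normalized reads over the 6 libraries (horizontal log axis) and log2 fold change of *fer* over WT for all genes with a mean of at least 10 (grey, 16036 genes, of which 88 lie beyond the axis limit of 3) and for the 33 genes (red where the adjusted p was under 0.05, open where not). The 33 genes lie at the right, above a mean of 642 normalized reads, and all but PSBY lie below 0.

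In 8 cases a function of the list is encoded by a pair of genes that are 75% to 88% identical in the bases of their aligned coding sequences. None of the 451 windows of 50 bases in the last 500 bases of any of the 33 transcripts was found elsewhere in the genome. Windows across an exon junction are absent from the genome as such, so that search could not find copies of them. Between the spliced transcripts of a pair, no window was shared in any of the 8 pairs. Reads of the length used can therefore be assigned to one member of a pair when they match exactly. The share of a pair's reads taken by its first gene was compared between genotypes for the 8 pairs by an exact two-sided permutation test over the libraries, where 3 against 3 cannot give a p below 0.1. None of the 8 could therefore pass, and the adjusted p over the 8 pairs was 0.2 at the lowest.

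The genotypes did not overlap in 4 pairs. PSBO1 made up 97.4%, 98.3% and 97.7% of the PSBO reads in *fer*, against 96.7%, 97.4% and 97.3% in WT (exact p = 0.1, adjusted p = 0.2). PETE1 made up 4.49%, 4.73% and 4.23% of the plastocyanin reads in *fer*, against 3.97%, 3.51% and 3.23% in WT (exact p = 0.1, adjusted p = 0.2). In the first case the minor gene took a smaller share in *fer* and in the second a larger one.

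PSBQ1 made up 16.6% ± 0.46 of its pair in *fer* and 19.3% ± 1.99 in WT (SD, n = 3 each, exact p = 0.1, adjusted p = 0.2), a difference of -2.62 percentage points. PSAE1 made up 84.7% ± 0.27 in *fer* and 86% ± 0.64 in WT (SD, n = 3 each, exact p = 0.1, adjusted p = 0.2). In the other 4 pairs the libraries overlapped. The difference was 1.2 percentage points for PSAD1, 0.19 for PSAH1, 0.79 for FD1 and 0.16 for LFNR1, and in PSAH1 and LFNR1 it was small beside the spread in *fer* (SD 4.08 and 3.93 points).

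**Figure D5:**
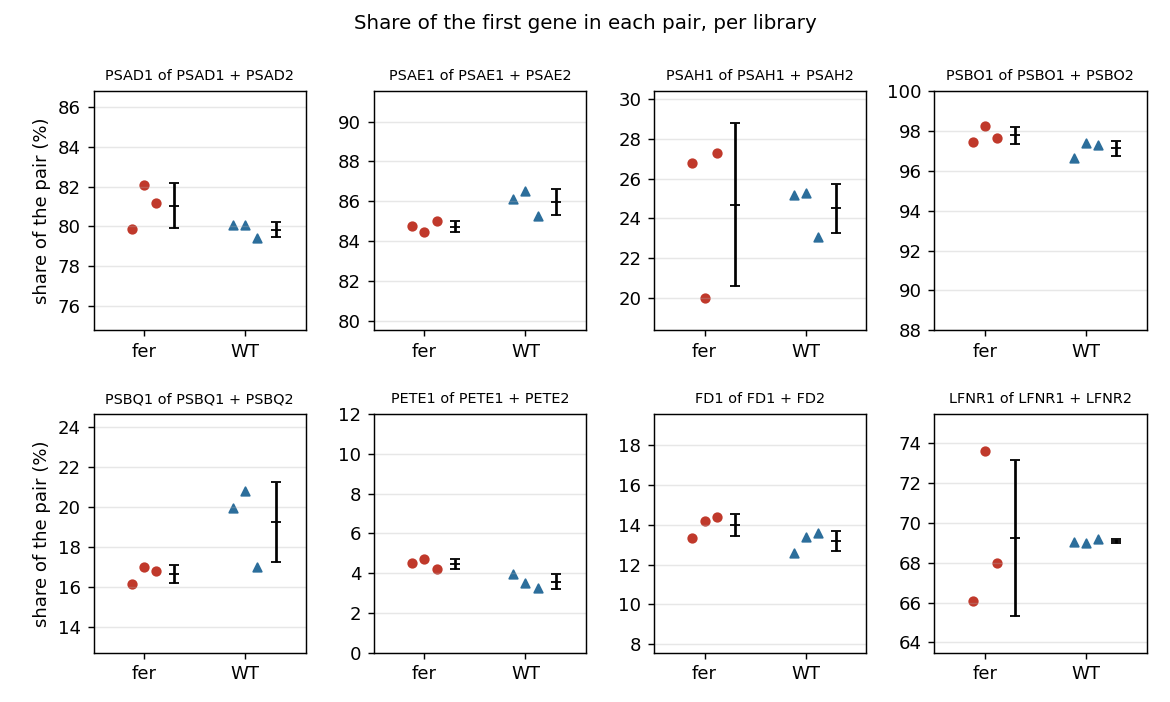
Share of the first gene in the reads of each of 8 gene pairs (vertical axis, in % of the pair, 12 percentage points in every panel), with *fer* left of WT, 1 point per library and the mean with 1 SD beside the points. The genotypes are apart in the panels of PSAE1, PSBO1, PSBQ1 and PETE1 and overlap in the other 4, and *fer* column 2 stands off from the other *fer* libraries in the panels of PSAH1 (20% of the pair) and LFNR1 (73.6%).

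The 3′ end of 6 genes overlaps a gene on the opposite strand that is in the table (PSAE1, PSAE2, PSAN, PSBP1, PSBR and LFNR1). Whether reads were counted by strand is not stated, so it is unknown whether reads in an overlap were counted, and for which gene. The largest mean among the opposite-strand partners was 482 normalized reads, for AT5G64030 beside PSAN. That level does not bound the reads of the 6 genes that could have been left out as ambiguous.

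Genes close to the group were read from fixed lists. In the antenna, 14 of 21 light-harvesting genes decreased and none increased. Of all genes 4.52% decreased and 10% increased, and of the 1018 abundant genes 28.6% decreased. All antenna genes but LHCA6, LHCB4.3 and LHCB7 reach the level of those 1018. The median log2 fold change of the 21 antenna genes was -0.34. In the core and transport group, 20 of 33 decreased and the median was -0.27. LHCA6 (log2 fold change -1.41 ± 0.33, adjusted p = 0.0068), LHCB4.3 (log2 fold change -0.96 ± 0.28, adjusted p = 0.027) and LHCB1.4 (log2 fold change -0.68 ± 0.07, adjusted p = 1.5e-06) changed most. The first 2 were low. LHCA6 had 157.8, 39.42 and 155.8 normalized reads in *fer*, against 326.1, 252.5 and 226.3 in WT. LHCB4.3 averaged 17.6 ± 3.54 in *fer* and 35.2 ± 5.73 in WT. The call for LHCA6 was lost without WT column 1 or 2 and that for LHCB4.3 in each fit with a library left out except that without *fer* column 1 (adjusted p up to 0.054 and 0.12). Under quantile normalization 8 antenna genes were called in place of 14.

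Of 9 other thylakoid subunits, 4 decreased, beside 4.52% of all genes, with a median of -0.22. These were PSB28 (log2 fold change -0.56 ± 0.10, adjusted p = 0.00082), an assembly protein of photosystem II, PPL1 (log2 fold change -0.51 ± 0.09, adjusted p = 0.00071), a relative of PsbP that acts in repair of photosystem II, AT2G26500 (log2 fold change -0.39 ± 0.07, adjusted p = 0.00078), annotated as a putative subunit of the cytochrome b6f complex, and CURT1A, which curves the thylakoid membrane. CURT1A had an adjusted p of 0.048, and of the fits with a library left out it passed in that without *fer* column 2 alone (adjusted p up to 0.18), and it was not called under quantile normalization (0.15). None of the 4 was called in limma without the trend (adjusted p = 0.085 to 0.33). AT2G26500 decreased while PETC, the other nuclear gene of its complex described here, did not pass, and the difference between them was not tested.

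Of 20 genes for cyclic electron flow and the chloroplast NDH complex, 6 decreased, beside 4.52% of all genes, and the median was -0.22. NDH carries electrons from ferredoxin back to plastoquinone. PNSL2 (log2 fold change -0.59 ± 0.15, adjusted p = 0.011), NDHU (log2 fold change -0.57 ± 0.10, adjusted p = 0.00051) and NDHL (log2 fold change -0.55 ± 0.10, adjusted p = 0.00083) changed most, and PNSL2 passed in 3 of 6 fits with a library left out (not without WT column 1 or 2 or *fer* column 2, adjusted p up to 0.058).

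Assembly, repair and regulation genes gave 1 call of 11, FTSH2 (log2 fold change -0.31 ± 0.09, adjusted p = 0.025), for a protease that removes damaged photosystem II protein, beside 14.6% of all genes called and 4.52% decreased. FTSH2 was no longer called without WT column 2 or 3 or *fer* column 2 or 3 (adjusted p up to 0.13). None of 5 genes for ferredoxins and reductases outside the leaf photosynthetic pair was called by limma, and none had an unadjusted p under 0.05, beside 27.1% of all genes, while median of ratios scaling called 1 of them.

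Of 11 nuclear regulators of photosynthesis genes or of plastid transcription, 3 increased, beside 10% of all genes, and none decreased, with a median of -0.03. GNL, a GATA factor that acts in chloroplast development, had 117, 107 and 110 normalized reads in *fer*, against 51.2, 74.4 and 52 in WT (log2 fold change 0.92 ± 0.18, adjusted p = 0.0011). GLK1, an activator of nuclear photosynthesis genes, had 522, 507 and 520 in *fer*, against 375, 426 and 436 in WT (log2 fold change 0.33 ± 0.09, adjusted p = 0.022). SIG5, a sigma factor of the plastid RNA polymerase, had 626, 744 and 669 in *fer*, against 547, 541 and 537 in WT (log2 fold change 0.32 ± 0.09, adjusted p = 0.019).

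The 3 called regulators were thus higher in *fer*, where most of the photosystem genes were lower. Of all 11 regulators, however, 6 had a log2 fold change below 0, the lowest at -0.35. The calls for GLK1 and SIG5 were lost under median of ratios scaling (adjusted p = 0.12 and 0.11), under quantile normalization (0.081 and 0.07) and in 4 of 6 fits with a library left out (up to 0.097 and 0.07). The calls were lost without WT column 1 or 2 or *fer* column 1 or 3 for GLK1, and without WT column 2 or 3 or *fer* column 2 or 3 for SIG5. GNL passed in all of these, with an adjusted p of at most 0.013, and was the one regulator called in limma without the trend (adjusted p = 0.046).

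Markers of leaf cells and of leaf ageing moved beside the group. All 3 mesophyll markers decreased, beside 4.52% of all genes and 28.6% of the 1018 abundant genes. RBCS1A had an adjusted p of 0.0067 in limma that was 0.067 without WT column 2, and its call was lost under quantile normalization. The 3 markers summed to 65018 to 72952 normalized reads in *fer* and 90107 to 92162 in WT, a ratio of 76.9% in a sum made up mostly of RBCS1A. By marker, the mean in *fer* was 80.9% of WT for RBCS1A, 71.4% for RCA and 58.2% for BCA1. In limma without the trend BCA1 was called (adjusted p = 0.023), and RCA (0.093) and RBCS1A (0.19) were not. All 7 senescence genes increased, beside 10% of all genes. The 7 genes summed to 1042 to 1127 in *fer* and 473 to 505 in WT. SAG13, a senescence-associated gene, had 276, 266 and 229 in *fer*, against 20.9, 32.2 and 14.7 in WT, and SAG12, a late senescence protease, had 35.7, 25.3 and 48.2 in *fer* and was at or near 0 in WT. PAO, for an enzyme of chlorophyll breakdown, had an adjusted p of 0.043 in limma and was not called with any library left out (0.078 to 0.11), under median of ratios scaling (0.11) or under quantile normalization (0.16). In limma without the trend, PAO, SGR1 and PPH were not called (adjusted p = 0.052, 0.055 and 0.064).

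Of 3 epidermal markers, ATML1 decreased (log2 fold change -0.63 ± 0.10, adjusted p = 0.00013), beside 4.52% of all genes. The sum of the 3 was 1229 to 1371 in *fer* and 1516 to 1583 in WT. No guard cell marker of 3 and no phloem marker of 2 passed, beside 14.6% of all genes that did. The sums were 373 to 456 in *fer* and 413 to 453 in WT for guard cells. For phloem they were 646 to 684 in *fer* and 673 to 692 in WT. The part of leaf age or cell makeup in the decrease of the 33 genes was not tested.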

How the data were processed

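Rosette leaf RNA of 3 *fer* and 3 WT libraries was read by QuantSeq with reads of 50 bases in merged runs. The authors aligned the reads to TAIR10 with STAR, counted them per gene with htseq-count and, per the labels, used edgeR. Versions and the use of strand are not given in the sources used here. The deposited signal gives reads after TMM scaling, which the authors also brought to totals of 4523902 to 4526129 per library. They are not whole reads, so the depth is unknown, no counting interval is given and no count test was run. A further deposited column holds the authors' log2 fold change and was not used.

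All tests used log2(value + 1) with limma 3.58.1 in R 4.3.3 (lmFit, eBayes with a trend), two-sided, with Benjamini-Hochberg adjustment over 20754 genes and a threshold of 0.05. The pseudocount of 1 understates changes of low genes. Percentages compare mean normalized reads. The fit was tested on simulated data with known changes. Paralog shares were compared with exact permutation tests in scipy 1.17.1. Columns carry the genotype and no replicate number, and columns 1, 2 and 3 pair nothing across genotypes. Positions, promoters and uniqueness came from RefSeq TAIR10.1.

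The 33 genes and all lists were chosen with earlier results of these data known. Named are all 33 genes, FER, the markers, and up to 3 called genes of each pathway list with the largest absolute change, with any called gene that went against the median of its list. CURT1A and AT5G64030 were named after their values were seen. Alternatives were a pseudocount of 0.1, leaving out genes with a mean below 5, scaling by median of ratios, quantile normalization, a fit without the variance trend, an adjusted p of 0.01 and leaving out each library. The comparison with genes at least as high as the lowest member was added after the data were seen.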

Additional observations from a re-analysis of the deposited data

How the results depend on the processing

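No paired analysis was possible because the table names its columns by genotype alone. The number of the 33 genes called as decreased was 20 and fell to 0 with limma without the trend, for which the larger variance assumed for abundant genes is part of the construction. It was 15 to 21 with a library left out, 14 at an adjusted p of 0.01, and between 19 and 30 under the other alternatives, and no alternative called a member as increased. Among the alternatives, the share of all genes that decreased is given only for limma without the trend, median of ratios scaling and quantile normalization. The median log2 fold change of -0.27 became -0.37 under median of ratios scaling and -0.25 under quantile normalization, and ran from -0.30 to -0.24 with a library left out. The difference in summed share was -2.15 percentage points and ran from -2.19 to -2.10 with a library left out.

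Quantile normalization moved the median of all genes by -0.14, and relative to that median the members stood at -0.21, against -0.37 as deposited. The share of calls that were lower in *fer* was 31% as deposited, 49.2% under median of ratios scaling and 51.7% under quantile normalization. Of 396 member values under alternatives, 326 stayed on their side of the threshold in the same direction, 49 lost a call, 16 gained one and 5 changed sign, none of them in a called gene. The sign changes were PSAE2, which ran from -0.0537 to 0.0720 with a library left out and was above 0 when WT column 3 or one of *fer* columns 1 and 3 was dropped, PSBX at 0.0117 under quantile normalization and PSBY at -0.0093 under median of ratios scaling. Without the trend, 1130 of all 20754 genes were called, 908 of them higher and 222 lower in *fer*. In that fit 1 of 21 light-harvesting genes, 1 of 20 genes for cyclic flow and NDH and 1 of 11 regulators was called. None was called among the other thylakoid subunits, the assembly and repair genes and the ferredoxins and reductases outside the leaf pair. None of the 48 pair shares with a library left out moved beyond the spread between libraries.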
